A study of Homo sapiens with 6 samples.

Results

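Expression of 10 transcription regulators of lymphoid identity was read in L428, an established cell line of classical Hodgkin lymphoma, on arrays that set cells given an inhibitor of the microRNA miR-9 against cells given a scrambled control. Both are LNAs, short oligonucleotides built from locked nucleic acid. Of the 10 regulators, 6 are factors of the B cell programme (EBF1, POU2F2, POU2AF1, SPI1, SPIB and TCF3) and 4 oppose it or belong to other lineages (ID2, MSC, GATA3 and NOTCH1). The members were every probe set, a group of short probes summarised to 1 value, that the platform annotation gives to exactly 1 of these genes. This made 38 probe sets of 10 genes, out of 54613 probe sets of 19775 named genes on the array.

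There were 3 samples labelled miR-9 LNA and 3 labelled scrambled LNA, all L428 cells transfected by nucleofection, and each was read on its own Affymetrix HG-U133 Plus 2.0 array from RNA harvested at 9 h. Both groups carried an LNA and went through the same transfection, and no untransfected cells are among the samples used here. The labels number the replicates 1 to 3 in each group and do not say whether they were grown separately, so p-values measure only the spread between these samples. L428 is 1 line, and the labels record neither the inhibitor's sequence nor how far it lowered miR-9. The series title names HuR and DICER1 as regulated when miR-9 is inhibited, and the labels state no question about the lineage factors themselves.

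In B cell development, E proteins such as TCF3 (the E2A proteins) bind DNA at E-boxes and, with EBF1, switch on B cell genes. ID2 pairs with E proteins and keeps them from DNA, and MSC (also called ABF-1 or musculin) is an E-box factor that acts as a repressor in activated B cells. Classical Hodgkin cells descend from B cells but have lost much of the B cell programme, and high ID2, MSC, GATA3 and active NOTCH1 are known features of these cells. POU2F2 (Oct-2), its coactivator POU2AF1 (BOB.1) and SPI1 (PU.1) are often reduced or absent in them.

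The microRNA that the inhibitor is directed against is shown first, since its seed fixes which transcripts it can pair with. Both mature arms of miR-9 are given from RefSeq on GRCh38.p14, 5′ to 3′, with the seed (bases 2 to 8, the stretch that pairs with targets) in capitals. The labels do not say which arm the inhibitor matches.
hsa-miR-9-5p: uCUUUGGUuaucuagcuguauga
hsa-miR-9-3p: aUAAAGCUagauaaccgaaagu
The 5p arm lies at chr1:156420392-156420414 and the 3p arm at chr1:156420354-156420375, both on the minus strand, in MIR9-1. The same mature sequences are also encoded by MIR9-2 on chromosome 5 and MIR9-3 on chromosome 15, and the arms share no seed.

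No probe set of the 10 factors passed the test with the miR-9 LNA. The E protein gene TCF3 and the T cell factor gene GATA3 lay about 0.1 to 0.3 log2 units higher at their bright probe sets, as did most bright probe sets of the array. The bright antagonist genes ID2 and MSC were at differences of 0.05, 0.0061 and -0.09, and EBF1 was at 0.18 at 1 of its 2 tested probe sets and 0.03 at the other. Values are log2 expression, so that 1 unit is a doubling, and a difference is the miR-9 LNA mean less the scrambled mean, with its standard error (SE) from limma, n = 3 arrays per group. The number of arrays limits the precision.

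Of the 38 probe sets, 27 from 8 genes were bright enough to be tested, with a mean of at least 7.11, the median of all probe sets. The other 11, from 6 genes, lay below it, among them both POU2AF1 probe sets and the only one of SPI1. In limma with Benjamini-Hochberg adjustment over all 27307 probe sets tested, 0 of the 27 passed an adjusted p of 0.05, against 0% of all, and none came below an adjusted 0.296. Taken without adjustment, p was under 0.05 in limma for 4 of the 27 as higher (14.8%), against 13.8% of all probe sets tested, and 0 as lower, against 0.626%. The share of higher probe sets among the factors was close to that of the whole array.

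The groups were fully apart at 5 of the 27 probe sets with the miR-9 LNA higher (18.5%, against 18.1% of all) and at 4 with it lower (14.8%, against 3.97% of all). All 4 lower ones belong to TCF3, and 216645_at and 216647_at among them were designed from the same transcript record, so they share their source. With 3 arrays against 3, the exact permutation test gives no two-sided p below 0.1, which is its value at each of these 9 probe sets.

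The arrays themselves differed in one respect that touches every bright gene. The 90th percentile of the values lay between 9.53 and 9.57 on the miR-9 LNA arrays, at 9.45 and 9.47 for scrambled replicates 2 and 3, and lowest for scrambled replicate 1 at 9.28, where the added control RNA dap was also highest (10.2, against 8.06 to 8.67 elsewhere). Split into 5 equal bands by level, all tested probe sets had median differences of -0.03, -0.0050, 0.06, 0.14 and 0.19 from the dimmest band to the brightest, and the last became 0.12 without scrambled replicate 1. Leaving that array out, limma gave 3 of the 27 members and 3597 of all probe sets an unadjusted p under 0.05. Quantile normalization, which gives every array the same distribution of values, brought these medians to between -0.0075 and 0.02. The members' differences are therefore given beside those of probe sets of the same level and beside the quantile normalized values, and whether amounts of RNA or the scaling set the shift was not tested.

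**Figure D1:**
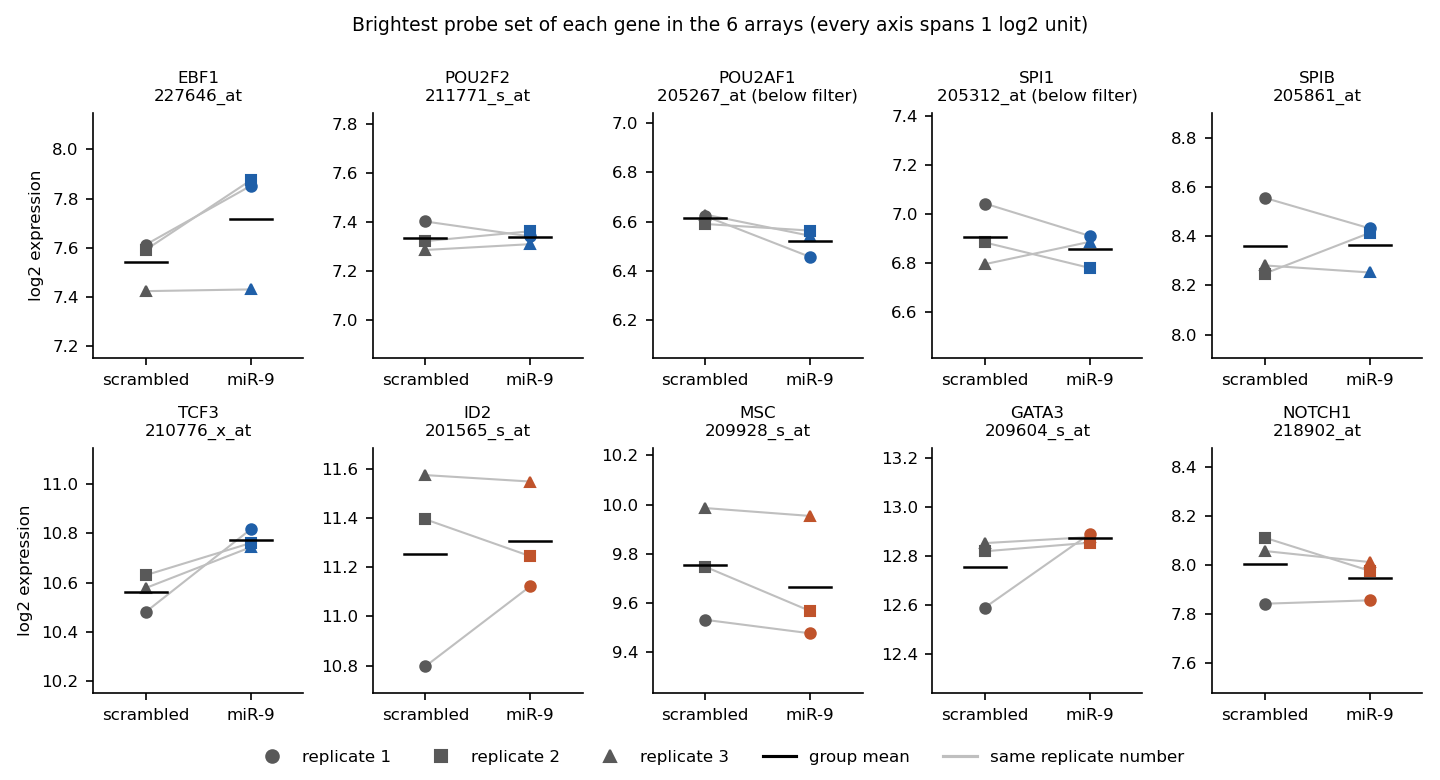
Log2 expression of the brightest probe set of each of the 10 genes on the 6 arrays, scrambled LNA in grey and miR-9 LNA in blue (B cell factors) or orange (antagonists and other lineages), with group means as black bars and grey lines joining arrays of the same replicate number. TCF3 and GATA3 lay higher on all 3 miR-9 LNA arrays, while ID2 and MSC varied more between replicate numbers than between groups.

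TCF3 encodes the E2A proteins E12 and E47 and was the member with most probe sets, 14, of which 12 were tested. The brightest, 210776_x_at, was at 10.82, 10.76 and 10.74 on miR-9 LNA replicates 1 to 3 and at 10.48, 10.63 and 10.58 on scrambled replicates 1 to 3. Every miR-9 LNA array exceeded every scrambled one. The difference was 0.21 ± 0.06, a 1.16-fold higher level (95% interval 1.04 to 1.28), and it did not pass (limma adjusted p = 0.296).

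At 213811_x_at TCF3 was at 10.07, 9.93 and 9.93 with the miR-9 LNA and at 9.65, 9.79 and 9.71 with the scrambled LNA. This was the largest difference among the members, 0.26 ± 0.07, again with no overlap of the arrays (limma adjusted p = 0.296, unadjusted p = 0.0067). At 213730_x_at the difference was 0.20 ± 0.07 and at 209153_s_at 0.13 ± 0.09, where the groups overlapped. Against the median of 0.19 for the brightest band of the array, these 4 differences lay inside the range of other bright probe sets: 61.1%, 80.5%, 57.5% and 25.7% of that band lay lower. After quantile normalization they were 0.02, 0.08, 0.04 and -0.04, so the last changed sign, and without scrambled replicate 1 they were 0.17, 0.23, 0.18 and 0.04. By Affymetrix naming, _x_at marks probe sets whose probes can match other transcripts. The 3 tested TCF3 probe sets with an unadjusted p under 0.05 in limma all carry it. Other TCF3 probe sets with this ending, given below, lay lower, so it is not particular to the higher ones.

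The dimmer TCF3 probe sets mostly lay the other way. At 216647_at TCF3 was at 7.28, 7.20 and 7.32 with the miR-9 LNA, against 7.53, 7.41 and 7.34 in the scrambled arrays, a difference of -0.16 ± 0.07 (limma adjusted p = 0.361). At 215260_s_at it was at 7.79, 7.83 and 7.84 against 7.98, 7.93 and 7.85, a difference of -0.10 ± 0.06 (limma adjusted p = 0.446). Every miR-9 LNA array lay below every scrambled array at both probe sets, with replicate 3 of the groups closest (same-numbered differences of -0.02 and -0.01). Of the probe sets in the same level band, 2.03% lay lower than 216647_at and 6.52% lower than 215260_s_at, and after quantile normalization the 2 differences were both -0.15, still with no overlap. In all, 6 tested TCF3 probe sets were higher and 6 lower, with a median difference of 0.02. The tested ones not yet given were 209152_s_at (0.07), 202648_at (0.06), 213809_x_at (-0.02), 216645_at (-0.06), 213731_s_at (-0.06) and 228052_x_at (-0.07). One gene thus gave differences of both signs, and none of the 12 passed.

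Below the filter, TCF3 had the lowest difference of all 38 probe sets. At 209151_x_at it was at 6.84, 6.97 and 7.01 with the miR-9 LNA, against 7.04, 7.06 and 7.20 in the scrambled arrays, a difference of -0.16 ± 0.07 (limma unadjusted p = 0.0443 in the fit without the filter). The groups did not overlap as deposited and overlapped after quantile normalization (-0.13). At 213732_at the difference was 0.0077 ± 0.05.

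EBF1, which specifies the B lineage together with E2A, had 4 probe sets, 2 of them tested. At 227646_at EBF1 was at 7.85, 7.87 and 7.43 on miR-9 LNA replicates 1 to 3 and at 7.61, 7.59 and 7.42 on scrambled replicates 1 to 3. Replicates 1 and 2 lay higher with the miR-9 LNA by 0.24 and 0.28 and replicate 3 by 0.0071, so the groups overlapped. The difference was 0.18 ± 0.13 (limma adjusted p = 0.523), with a 95% interval from -0.12 to 0.47. It was 0.16 after quantile normalization, 0.099 without miR-9 LNA replicate 2 and 0.32 without miR-9 LNA replicate 3, and 96.6% of the probe sets of its level band lay lower. The second probe set, 232204_at, gave 7.56, 7.67 and 7.25 against 7.54, 7.59 and 7.24, a difference of 0.03 ± 0.13. Its 95% interval, from -0.27 to 0.34, contains the 0.18 of the first. The probe sets 229487_at and 233261_at lay below the filter, at differences of -0.01 and -0.09.

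POU2F2, the octamer-binding factor Oct-2, lay close to or below the filter at all 7 probe sets, of which 4 were tested. The brightest, 211771_s_at, was at 7.34, 7.36 and 7.31 with the miR-9 LNA and at 7.40, 7.32 and 7.29 with the scrambled LNA. The groups overlapped, and the difference was 0.00095 ± 0.06 (limma adjusted p = 0.995) with a 95% interval from -0.14 to 0.14. The other 3 tested probe sets differed by 0.0017 to 0.04. After quantile normalization 2 of them, 229750_at and 242866_x_at, no longer overlapped, at differences of 0.06 and 0.05. They were the only 2 of the 27 tested members then apart as higher (7.41%, against 5.98% of all tested). Below the filter POU2F2 differed by -0.07 at 227749_at, -0.11 at 235661_at and 0.03 at 228343_at.

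POU2AF1, the B cell coactivator that binds Oct-1 and Oct-2 on DNA, was read only below the filter. At 205267_at it was at 6.46, 6.56 and 6.54 with the miR-9 LNA, against 6.62, 6.59 and 6.63 in the scrambled arrays, a difference of -0.09 ± 0.05 with no overlap, and at 1569675_at the difference was 0.04 ± 0.08. SPI1, the Ets factor PU.1 of myeloid and B cells, was at 6.91, 6.78 and 6.89 against 7.04, 6.88 and 6.80, a difference of -0.05 ± 0.07 with overlap. At values this close to the bottom of the array's range, near 6 on every array, a change in a weak transcript could be understated.

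SPIB, the Ets factor closest to PU.1, was tested at both of its probe sets. At 205861_at it was at 8.43, 8.41 and 8.25 with the miR-9 LNA and at 8.56, 8.25 and 8.28 with the scrambled LNA, with the single highest value on scrambled replicate 1. The difference was 0.0043 ± 0.10 (limma adjusted p = 0.988) and became 0.10 without that array and -0.09 after quantile normalization. At 232739_at SPIB was at 7.04, 7.14 and 7.21 against 7.21, 7.20 and 7.41, a difference of -0.14 ± 0.08 (limma adjusted p = 0.433), lower in 3 of 3 same-numbered pairs but with overlap between the groups.

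ID2, the inhibitor that sequesters E proteins, had its highest and lowest arrays at the same replicate numbers in both groups. At 201565_s_at it was at 11.12, 11.25 and 11.55 on miR-9 LNA replicates 1 to 3 and at 10.80, 11.40 and 11.58 on scrambled replicates 1 to 3. Replicate 3 was highest and replicate 1 lowest in each group, and the groups overlapped. The difference was 0.05 ± 0.20 (limma adjusted p = 0.917), and its 95% interval, -0.42 to 0.52, leaves room for a change of either sign up to 1.44-fold higher or 0.75-fold.

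The second ID2 probe set, 201566_x_at, was at 9.35, 9.51 and 9.65 against 9.41, 9.45 and 9.65, with the same order of replicate numbers. The difference was 0.0061 ± 0.10 (limma adjusted p = 0.981). Because bright probe sets in general lay higher with the miR-9 LNA, differences near 0 placed ID2 low among its peers: 9.25% and 5.14% of the brightest band lay lower. After quantile normalization the ID2 differences were -0.13 ± 0.16 and -0.15 ± 0.09, and without scrambled replicate 1 they were -0.18 and -0.04. The sign for ID2 therefore depended on the scaling, and neither value passed.

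MSC, the E-box repressor, was read by 1 probe set, 209928_s_at. It was at 9.48, 9.57 and 9.95 on miR-9 LNA replicates 1 to 3 and at 9.53, 9.75 and 9.99 on scrambled replicates 1 to 3. As for ID2, replicate 3 was highest and replicate 1 lowest in both groups, and each miR-9 LNA array lay below the scrambled array of its number (differences of -0.05, -0.18 and -0.03). The difference was -0.09 ± 0.15 (limma adjusted p = 0.795), with a 95% interval from -0.45 to 0.27. Only 1.24% of the brightest band had a lower difference.

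After quantile normalization the MSC difference was -0.25 ± 0.13 (limma unadjusted p = 0.0824). With the replicate number added as a block, an alternative chosen after the data were seen, it was -0.25 ± 0.06 (limma unadjusted p = 0.0042, adjusted p = 0.461). In that setting limma gave 2910 of all 27307 probe sets an unadjusted p under 0.05. Among the 27 members it gave 2, MSC and TCF3 216647_at (limma unadjusted p = 0.0494). At MSC the groups still overlapped after quantile normalization, at 9.40, 9.51 and 9.85 against 9.73, 9.78 and 10.00. MSC was thus lower with the miR-9 LNA under both scalings without passing in either, and without scrambled replicate 3 the deposited difference was 0.03.

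GATA3, the T helper cell factor found in Hodgkin cells, lay higher at all 3 of its probe sets. At 209604_s_at it was at 12.89, 12.85 and 12.88 with the miR-9 LNA and at 12.59, 12.82 and 12.85 with the scrambled LNA. The arrays did not overlap, but scrambled replicates 2 and 3 lay just under the miR-9 LNA arrays and replicate 1 stood apart. The difference was 0.12 ± 0.08 (limma adjusted p = 0.50), and 0.04 without scrambled replicate 1.

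At 209602_s_at GATA3 was at 10.36, 10.40 and 10.41 against 10.15, 10.13 and 10.32, again with no overlap. The difference was 0.19 ± 0.07 (limma adjusted p = 0.313), and 52.6% of the brightest band lay lower. At 209603_at it was at 9.22, 9.20 and 9.30 against 8.98, 9.04 and 9.22, a difference of 0.16 ± 0.08 with overlap. After quantile normalization the 3 differences were -0.05, 0.01 and 0.02, so no GATA3 probe set kept a difference above 0.02, and the first turned its sign.

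NOTCH1, the receptor that commits progenitors to the T lineage and whose signal opposes the B cell programme in Hodgkin cells, was tested at 218902_at. It was at 7.86, 7.98 and 8.01 with the miR-9 LNA and at 7.84, 8.11 and 8.06 with the scrambled LNA, with replicate 1 lowest in both groups. The difference was -0.06 ± 0.09 (limma adjusted p = 0.776), with a 95% interval from -0.26 to 0.15, and -0.10 after quantile normalization. Its other probe set, 223508_at, lay below the filter at a difference of -0.07 ± 0.05.

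**Figure D2:**
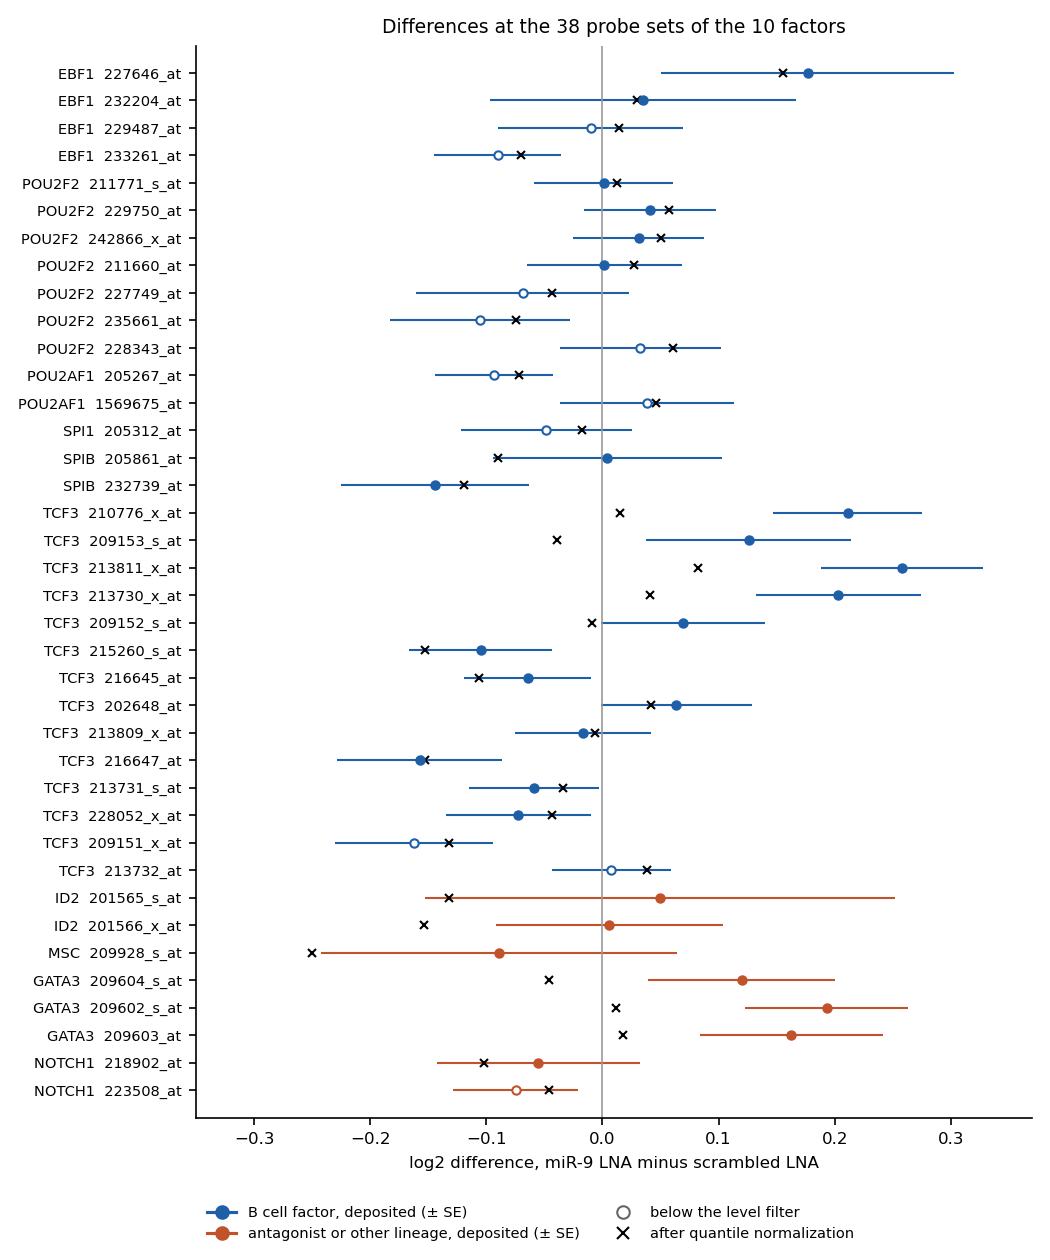
Log2 difference (miR-9 LNA minus scrambled LNA) at each of the 38 probe sets, as deposited with its SE (circles, open where below the level filter) and after quantile normalization (crosses). The bright TCF3 and GATA3 probe sets moved from 0.12 to 0.26 to between -0.05 and 0.08, and ID2 and MSC from near 0 to between -0.25 and -0.13.

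Read as groups, the 20 tested probe sets of the B cell factors had a median difference of 0.02 (13 higher, 7 lower) and the 7 of the antagonists and other lineages 0.05 (5 higher, 2 lower). For all 27 the median was 0.03 (18 higher, 9 lower), beside 0.06 for the whole array (18265 higher, 9042 lower). Quantile normalized, the 27 divided into 12 higher and 15 lower (median -0.0086), and all probe sets tested into 14074 and 13233 (median 0.0035). Limma then gave 0 of the 27 an unadjusted p under 0.05, against 4.55% of all. The groups were then fully apart at 2 of the 27 as higher (7.41%, against 5.98% of all) and at 3 as lower (11.1%, against 5.72% of all). All 3 lower ones were probe sets of TCF3, 215260_s_at, 216645_at (-0.11) and 216647_at, and the last 2 share their source. The antagonists then had a median of -0.10 (2 higher, 5 lower), and the B cell factors 0.0029 (10 higher, 10 lower). The difference between these 2 groups of genes was not tested.

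**Figure D3:**
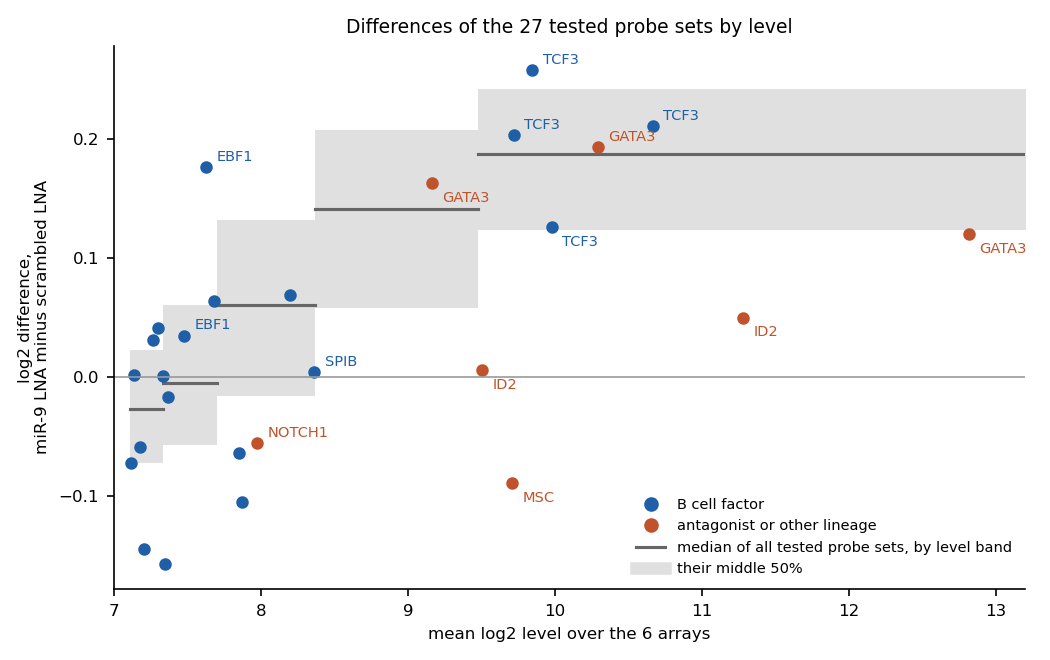
Log2 difference of the 27 tested probe sets against their mean log2 level, with the median and middle 50% of all tested probe sets in each band of level in grey. Bright TCF3 and GATA3 probe sets lay in or beside the grey area, ID2 (0.05 and 0.0061) and MSC (-0.09) under it, and EBF1 227646_at (0.18) above that of its own level.

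The values of ID2, MSC and EBF1 differed more between replicate numbers than between groups. The 3′-minus-5′ difference of the GAPDH and ACTB control probe sets, a sign of RNA quality, also differed by number, at 0.46, 0.20 and 0.11 on miR-9 LNA replicates 1 to 3 and 0.38, 0.17 and 0.097 on scrambled replicates 1 to 3. It was highest where ID2 and MSC were lowest, and its part in their values was not tested. With the number as a block, the SE fell from 0.20 to 0.10 at ID2 201565_s_at, from 0.15 to 0.06 at MSC and from 0.13 to 0.07 at EBF1 227646_at, with the differences themselves unchanged. EBF1 ran opposite to ID2 and MSC, being lowest on replicate 3 in both groups at both tested probe sets. The same number was highest in both groups at 11 of the 27 probe sets (40.7%), against 46.2% of all tested, and lowest at 9 (33.3%), against 44.3%. The gap between the members' shares and those of the array was not tested. With the block 6 of the 27 had an unadjusted p under 0.05 in limma, against 22.8% of all, and 0 passed after adjustment.

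The genes whose values over the 6 arrays followed a member most closely were named by Pearson's r among 12366 genes, as a description of 6 arrays. MSC was closest to SOCS1, a negative regulator of cytokine signalling (r = 0.998), and DUS3L (r = 0.988), and ID2 to KRT7 and ECH1 (both r = 0.991). EBF1 was closest to ACTN1 (r = 0.993) and VEZT (r = 0.992), and TCF3 to FAM241A and EEF1AKMT1 (both r = 0.999). GATA3 had SPCS2 (r = 0.999) and RGS10 (r = 0.998) nearest, POU2F2 had DENND5B (r = 0.996) and SLC2A4RG (r = 0.994), SPIB had PPP2R3B (r = 0.982) and STPG1 (r = 0.981), and NOTCH1 had KLK4 and BCL11B (both r = 0.980). These values carry no p, and the 6 points share the array's scaling and the replicate numbers.

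TCF3 and MSC bind E-boxes, and ID2 keeps E proteins from DNA. The stretch before the transcription start of each member was therefore searched for the E-box letters CANNTG, which read the same on both strands. RefSeq entries on GRCh38.p14 were found for 7 of the 10 genes, with 12 start sites, and the 250 bases before each were used. POU2AF1, SPI1 and MSC had none in the table. An E-box was present in 6 of the 12 windows, against 61.8% of all 35116 windows. GATA3 supplied 6 of the 12, of which 2 had one, and by gene 5 of 7 had one in any window, against 66.7% of all genes in the table. EBF1 and ID2 are printed, as a B cell factor and an antagonist of the E proteins, with E-boxes in capitals and in the direction of transcription.
EBF1: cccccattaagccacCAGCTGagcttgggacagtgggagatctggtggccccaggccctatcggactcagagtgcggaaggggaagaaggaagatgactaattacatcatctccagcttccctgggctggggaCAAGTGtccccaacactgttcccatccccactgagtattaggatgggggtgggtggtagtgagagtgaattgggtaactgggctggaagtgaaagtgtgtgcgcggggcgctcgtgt
ID2: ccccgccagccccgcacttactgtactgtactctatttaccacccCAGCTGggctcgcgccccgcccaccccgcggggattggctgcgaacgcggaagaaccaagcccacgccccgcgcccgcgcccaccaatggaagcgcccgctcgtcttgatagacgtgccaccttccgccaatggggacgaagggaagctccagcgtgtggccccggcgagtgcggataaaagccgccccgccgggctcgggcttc
The EBF1 window, chr5:159097957-159098206 on the minus strand, held 2 E-boxes, and the ID2 window, chr2:8681806-8682055 on the plus strand, held 1. The octamer ATGCAAAT, a PU.1 core GAGGAAGT and a GATA core AGATAA, searched on both strands, were in 0 of the 12 windows, against 1.63%, 2.17% and 9.17% of all. The letters TGGGAA, part of the RBPJ site used by Notch, were in 1 of 12, that of EBF1, against 20.9% of all windows. A match is a description of letters and shows no binding.

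The genes around the members were read from 8 lists, each gene by its brightest tested probe set, and 0 genes of any list passed. At an unadjusted p under 0.05, limma gave 17.4% of all 12367 genes tested as higher and 0.598% as lower, and the median difference of all was 0.08. Among other B cell transcription factors 14 of 16 tested genes were higher and 2 lower, with a median of 0.18 that became 0.02 after quantile normalization. IKZF1 (Ikaros) differed by 0.38 ± 0.10, TCF12 (the E protein HEB) by 0.21 ± 0.09 and FOXO1 by 0.18 ± 0.07. These 3 had the only unadjusted p-values under 0.05 of the list in limma. All 3 were higher with no overlap of the arrays, as were 18.1% of all probe sets tested. After quantile normalization IKZF1 was at 0.18 ± 0.07, TCF12 at 0.10 ± 0.07 and FOXO1 at 0.10 ± 0.08, all with overlap, and without scrambled replicate 1 TCF12 was at 0.13.

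The B cell target genes, which the 6 factors are known to switch on, were 4 higher and 6 lower of 10 tested, with a median of -0.04. FCRLA, a B cell Fc receptor-like gene, was at 7.16, 7.13 and 7.16 with the miR-9 LNA, against 7.45, 7.36 and 7.34 in the scrambled arrays, a difference of -0.23 ± 0.06 (limma adjusted p = 0.296, unadjusted p = 0.0052). The arrays did not overlap, before or after quantile normalization (-0.21). LYN differed by 0.17 ± 0.08, which became 0.0089 after quantile normalization and 0.10 without scrambled replicate 1, and CD79A by -0.07 ± 0.06 (then -0.06). The 10 tested targets had a median level of 7.36, and CD74 (12.96), LYN (9.55) and CIITA (8.28) were the brightest. A further 9 of the 19 targets named on the array lay below the filter, among them the B cell surface genes MS4A1 (CD20) and CD79B.

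Among the related family members 7 of 11 tested were higher and 4 lower (median 0.09, highest 0.29). Of smallest p in limma were FLI1, at a difference of 0.22 ± 0.07 (0.22 after quantile normalization), and NOTCH2, at 0.21 ± 0.08 (then 0.0046). TCF12 was a member of this list too. The other ID genes ID1, ID3 and ID4 and the other EBF genes EBF2, EBF3 and EBF4 all lay below the filter. Of the Notch pathway 14 of 23 tested genes were higher and 9 lower (median 0.03). ADAM10, the protease that makes the first ligand-induced cut in Notch, differed by 0.30 ± 0.08, MAML2, a Notch coactivator, by 0.18 ± 0.07, and HES4, of the hairy and enhancer of split family, by -0.21 ± 0.07. HES4 had no overlap before or after quantile normalization (-0.28 ± 0.07, limma unadjusted p = 0.0051). The ADAM10 and MAML2 differences became 0.12 and 0.02. Neither overlapped as deposited, and after quantile normalization ADAM10 still had no overlap and MAML2 overlapped.

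**Figure D4:**
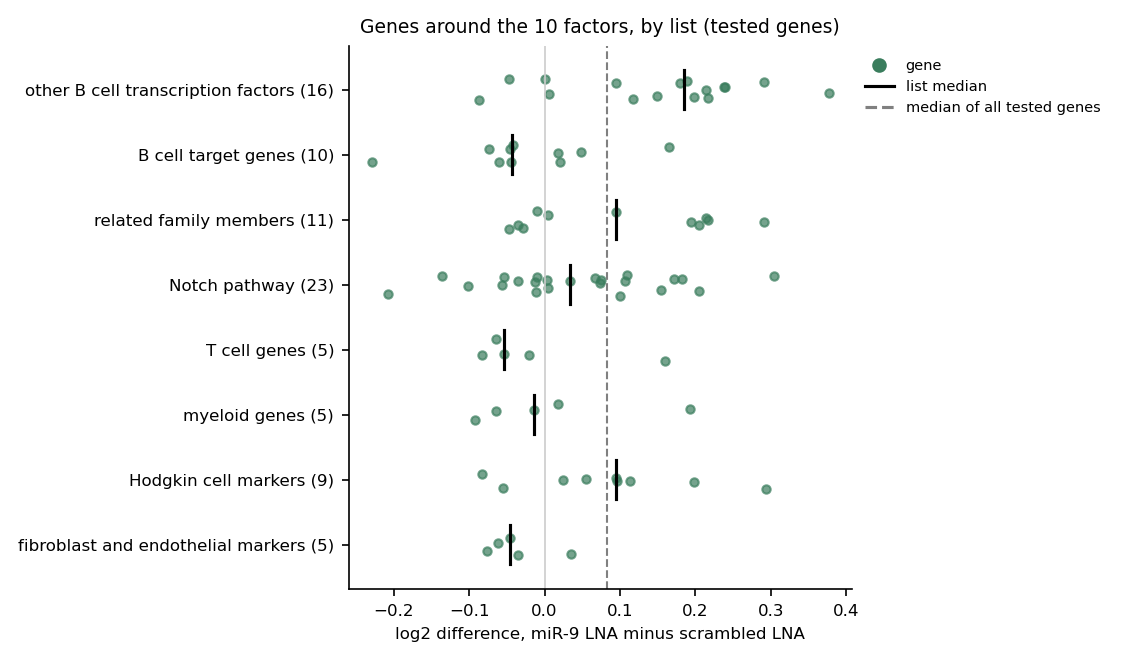
Log2 difference (miR-9 LNA minus scrambled LNA) of each tested gene in the 8 lists around the members, with the number of tested genes in brackets, list medians as black bars and the median of all 12367 tested genes as a dashed line. Other B cell transcription factors had the highest list median, 0.18, and no gene passed the adjusted threshold.

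The remaining lists described the cells. The Hodgkin cell markers were all tested, 9 of 9, at levels from 9.26 to 12.7, with 7 higher and 2 lower. FUT4, the enzyme that makes CD15, differed by 0.29 ± 0.09, IRF4 by 0.20 ± 0.08 and TNFRSF8 (CD30) by 0.11 ± 0.09. The list median went from 0.10 to -0.10 after quantile normalization, with 2 of 9 then higher. FUT4 was then at 0.14, IRF4 at 0.0076 and TNFRSF8 at -0.07. Of 13 T cell genes 5 were tested, 1 higher and 4 lower, with CD3D, CD3E and CD3G below the filter. Those of smallest p in limma were TBX21 (difference -0.05 ± 0.06), BCL11B (-0.08 ± 0.11) and CCR4 (0.16 ± 0.27). Of 12 myeloid genes 5 were tested, 2 higher and 3 lower, with the smallest p in limma at CEBPB (difference 0.19 ± 0.12), CSF3R (-0.09 ± 0.07) and FES (-0.06 ± 0.07). Of 10 fibroblast and endothelial markers 5 were tested, 1 higher and 4 lower. The smallest p in limma were at COL1A2 (difference -0.08 ± 0.07), PECAM1 (-0.06 ± 0.06) and DCN (-0.05 ± 0.06). The mean level of the fibroblast and endothelial list lay between 7.01 and 7.02 on the miR-9 LNA arrays and between 7.01 and 7.07 on the scrambled arrays.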

How the data were processed

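Expression was measured in 6 samples of L428, 3 with a miR-9 LNA and 3 with a scrambled LNA. The values are the authors' deposited log2 expression, produced by RMA in the affy package according to the submitters' processing notes. Package versions, and whether an offset was added (every array bottoms out near 6), are not stated in the sources used here.

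Of 54675 probe sets, 62 controls were left out and the 27307 at or above the median level (7.11) entered a two-sided limma fit (version 3.58.1, under R 4.3.3; lmFit, then eBayes) with Benjamini-Hochberg adjustment at 0.05. Members dimmer than this were read from an unfiltered fit. The platform annotation supplied the gene names, giving 1 symbol for 41091 probe sets, several for 1801 and none for 11721. The members and lists were chosen with earlier results of these data known. Named genes are every member probe set, the 3 genes of smallest p in each list and the 2 genes closest to each member. The ID, EBF, CD3, MS4A1 and CD79B genes below the filter, and the bright targets CD74 and CIITA, were added after their values were seen.

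Deviations from the group means correlated at r = 0.231, 0.193 and 0.634 between same-numbered arrays and at -0.429 to 0.168 between others, so the pairing comes from the data and not from the labels. Alternatives covered the filter, normalization, centring, variance model, array weights, block, a 3'-minus-5' covariate, the fold threshold, the probe set to gene rule and omission of single arrays. Before use, the limma script was tested on simulated data with known changes. The simulated noise was independent between arrays, so the shift by level and the likeness of same-numbered arrays were not covered. Plots were made in Python 3.11.15 with matplotlib 3.10.9.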

Additional observations from a re-analysis of the deposited data

How the results depend on the processing

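No probe set passed the adjusted threshold in limma under any alternative run, for the members, the lists or the array as a whole, and with the replicate block added none did either (lowest adjusted p 0.159). At an unadjusted p under 0.05 limma gave 4 members in the deposited values, 6 each with no level filter (of 38), with array weights, with the block and with the 3′-minus-5′ covariate, 0 after quantile normalization, 2 with a trended robust variance, 2 after quantile normalization with the block (added after the data were seen) and 2 to 5 when each array was left out in turn, the lowest without miR-9 LNA replicate 2. With the upper quartile filter, 4 of the 12 member probe sets kept and 2584 of all those kept had an unadjusted p under 0.05 in limma. Fewer probe sets were tested there, so 2584 is not comparable with the count of 3926 in the main fit. Over all probe sets the count of 3926 became 1243 after quantile normalization and 6218 with the block. It was 2408 to 4383 when each array was left out. With no level filter it was 5880 (of 54613), with array weights 5537 and with the 3′-minus-5′ covariate 5741. A trended robust variance gave 3294, and quantile normalization with the block gave 2910. With array weights, the block and the covariate, where the probe sets tested stayed the same, the counts of the members and of the array both rose. With no level filter more probe sets were tested, so 6 and 5880 are not comparable with 4 and 3926.

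Among tested probe sets quantile normalization, alone or with the block, turned the sign at SPIB 205861_at (-0.090), TCF3 209153_s_at (-0.039) and 209152_s_at (-0.0086), ID2 201565_s_at (-0.13) and 201566_x_at (-0.15), GATA3 209604_s_at (-0.046) and TNFRSF8 (-0.072). The covariate turned POU2F2 211771_s_at (-0.0065) and SPIB 205861_at (-0.022), median centring and array weights turned TCF3 213809_x_at (0.010 and 0.013), and array weights turned ID2 201565_s_at (-0.10). Reading a gene by the mean of its probe sets turned POU2F2 (-0.0096) and SPIB (-0.070), and its least ambiguous probe set turned TCF3 (-0.064). Leaving out 1 array gave both signs at EBF1 232204_at (-0.072 to 0.16), POU2F2 211771_s_at (-0.024 to 0.034) and 211660_at (-0.033 to 0.038), SPIB 205861_at (-0.053 to 0.10), TCF3 213809_x_at (-0.035 to 0.015), ID2 201565_s_at (-0.18 to 0.21) and 201566_x_at (-0.066 to 0.082), MSC (-0.23 to 0.027) and CCR4 (-0.082 to 0.44). Below the filter, leaving out 1 array also gave both signs at EBF1 229487_at, POU2F2 227749_at and 228343_at, POU2AF1 1569675_at, SPI1 205312_at and TCF3 213732_at, array weights turned 229487_at, 227749_at, 1569675_at and 213732_at, and quantile normalization and median centring turned 229487_at (0.014 and 0.017). The cause of these changes of sign was not tested. The upper quartile filter drops probe sets below 7.99, so dimmer members have no value there. POU2AF1, SPI1 and most POU2F2 values lie near the bottom of the range, where signal over background limits what can be seen.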

Other observations

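A probe set outside the 38, 213931_at, is annotated to both ID2 and ID2B and was left out by the rule. It was at 7.78, 7.91 and 8.27 on miR-9 LNA replicates 1 to 3 and at 7.62, 7.85 and 8.27 on scrambled replicates 1 to 3, so replicate 3 was again highest and replicate 1 lowest in both groups. The difference was 0.07 ± 0.18 (limma adjusted p = 0.867).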
